A study of Mus musculus with 11 samples.

Results

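The miR-99/100 and miR-125 families were followed across 11 arrays of mouse mammary tissue, on which they were represented by mmu-miR-99a, mmu-miR-99b, mmu-miR-100, mmu-miR-125a and mmu-miR-125b, written below without the species prefix. These 5 of the 334 mouse miRNAs on the custom array were taken by the name printed on the spots, each with 4 replicate spots. No filter on measured values was used to pick them, though earlier results of these data were known. The 8 normal glands came from females in late pregnancy, with 2 FVB, 3 Balb/C (labelled Balbc) and 3 FVB129B6 (a mixed background) samples. The 3 tumors came from C3(1)/Tag females of the FVB strain, in which the flanking sequence of the rat C3(1) prostate steroid binding protein gene drives the SV40 large T and small t antigens. In the study the strains were profiled to learn whether the genetic background of the models affects miRNA expression. RNA was taken from whole tissue. The ages of the mice are not given in the sources used here, and while the study's methods describe the tumors as taken from different mice, they do not say so for the glands of a strain, where p-values then measure the spread between these samples.

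A miRNA represses messenger RNAs that pair with its seed, the stretch of bases near its 5′ end, and miRNAs with one seed form a family. The miR-99/100 family is one of the oldest in animals and is known for repressing mTOR and the IGF1 receptor, which sense growth factors and nutrients. The miR-125 family is the vertebrate counterpart of lin-4, the first miRNA described, and is known for repressing Lin28a, Erbb2 and Erbb3, of which Erbb2 and Erbb3 are receptors of the epidermal growth factor group. Both families are encoded beside let-7 genes, since copies of one ancestral cluster lie at several places in the genome. Within each copy the order is a miR-99/100 gene, a let-7 gene and a miR-125 gene.

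The mature sequences are shown because the families are defined by them and because the array has to tell near-identical RNAs apart. They are those of RefSeq (GRCm38.p6), found for all 5 miRNAs, written 5′ to 3′ with the seed (bases 2 to 8) in capitals.
miR-99a: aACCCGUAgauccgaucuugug
miR-99b: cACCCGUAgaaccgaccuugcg
miR-100: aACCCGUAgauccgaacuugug
miR-125a: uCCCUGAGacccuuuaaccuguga
miR-125b: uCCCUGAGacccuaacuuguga
miR-351: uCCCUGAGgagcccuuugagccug
The first 3 share the seed ACCCGUA and the last 3 the seed CCCUGAG. miR-351, encoded on the minus strand of the X chromosome at chrX:53053315-53053338, was the one other miRNA on the array with a seed of the 5. Counted from the 5′ end of miR-99a, miR-100 differs from it by the single substitution U16A, and miR-99b by A1C, U11A, U16C and U21C. On the array the 60-base probes of miR-99a and miR-100 differed by 4 base edits, those of miR-99a and miR-99b by 5, and those of miR-125a and miR-125b by 5. The probe of miR-99a covered bases 2 to 21 of its RNA and that of miR-125a bases 1 to 23, while the others covered the whole RNA. The probes of let-7e and let-7a, cluster partners of the members, differed by 1 base edit. How far related RNAs bind each other's probes was not measured on these arrays.

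All of the members lie on plus strands. On chromosome 17, miR-99b (chr17:17830194-17830215), let-7e and miR-125a (chr17:17830817-17830840) lie within 686 bases. On chromosome 16, miR-99a (chr16:77598940-77598961), let-7c and the second gene of miR-125b (chr16:77646279-77646300) span 47.4 kb. On chromosome 9, miR-100 (chr9:41531437-41531458), let-7a and the first gene of miR-125b (chr9:41581940-41581961) span 50.6 kb inside the long non-coding RNA gene Mir100hg. The mature miR-125b of both places is the same molecule, so its spots cannot assign signal to either place. let-7a and let-7c also have genes outside these clusters.

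Levels are given as log2 green intensities minus the median of their array, so that 0 is the median of the 1336 mouse spots, and they are compared between groups and not between miRNAs, whose probes differ in brightness. FVB arrays were dim, with median spot intensities of 188.5 and 245.5 against 508 to 671.5 for the 6 other glands, and no tumor array exceeded 170. The scanner's program calls each spot well above background or not, and a miRNA counted as well above background where at least 50% of its spots were. Between 209 and 262 of the 334 miRNAs met this on gland arrays but 15 to 64 on tumor arrays, and the 261 that met it on at least 3 arrays were tested. The glands shared 1 slide, in which FVB samples alone filled a column, while tumors were on a separate slide read with an earlier program version. Slide, program version and tumor cannot be told apart, nor can slide column and FVB strain. The titles of Balb/C replicates 2 and 3 could name both sides of 1 mouse.

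All 5 members were tested, and all 5 were well above background on each of the 8 gland arrays. Their 4 spots agreed closely there, with a median SD of 0.048 on the log2 scale and a highest SD of 0.14, against a median of 0.52 on the tumor arrays, and none of their spots was marked as an outlier. For each member the highest of the tumor levels lay below the lowest gland level. Among the glands, miR-99b and miR-125a were highest in both FVB samples, while the strains overlapped for miR-99a, miR-100 and miR-125b.

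**Figure D1:**
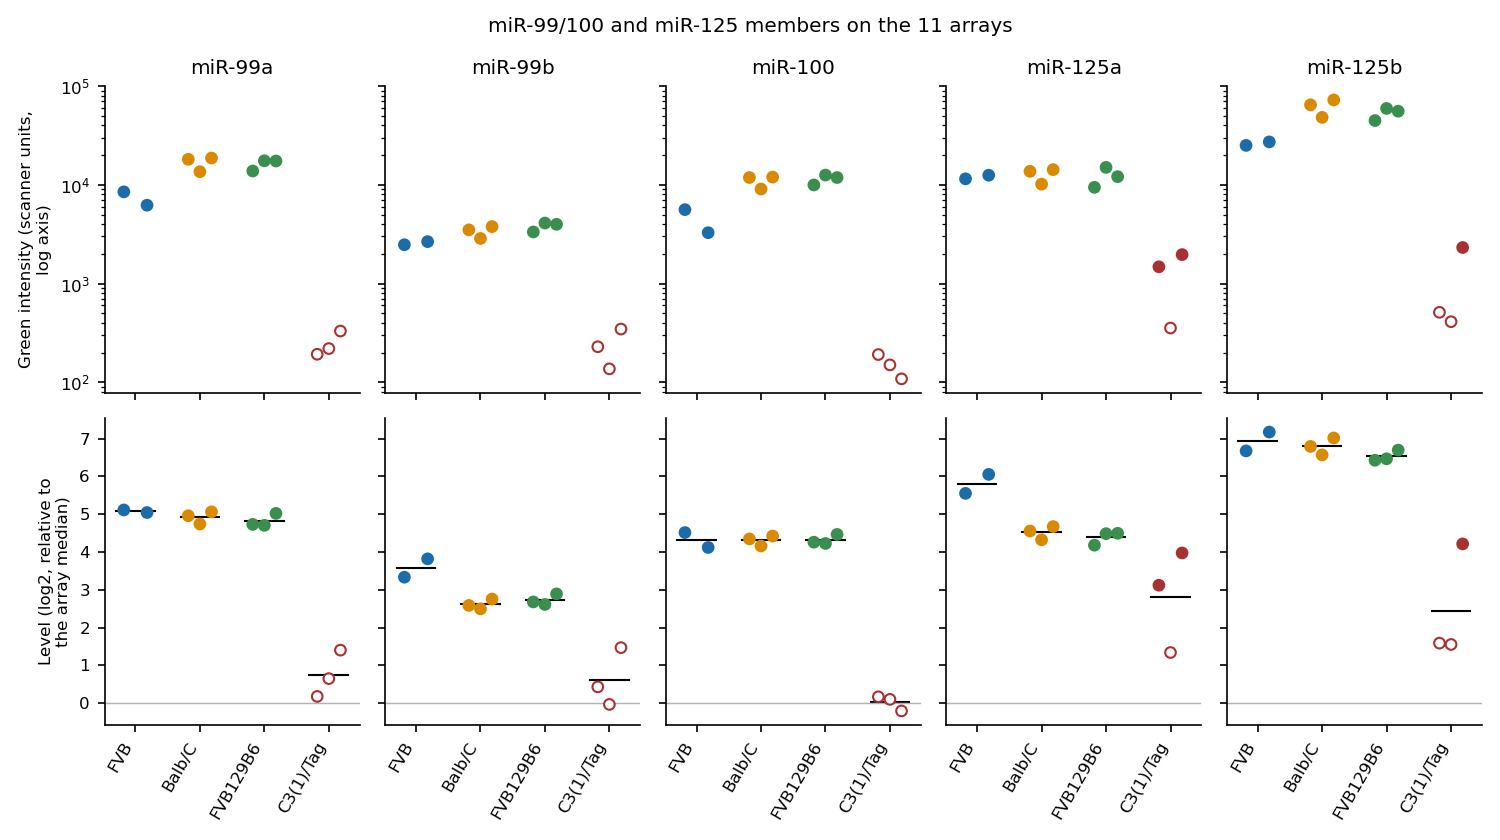
Green intensity in scanner units on a log axis (top) and level on the log2 scale relative to the array median (bottom) of the 5 members, with one point for each array, filled where the miRNA was well above background, and black lines at group means of the levels. Intensities of miR-125a are alike in the 3 strains while its levels are highest in FVB, and the tumor points of miR-99a, miR-99b and miR-100 are all open.

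miR-125a, of the miR-125 family, had levels of 5.55 and 6.05 in the FVB glands. Its levels were 4.55, 4.32 and 4.67 in Balb/C glands, and 4.18, 4.48 and 4.49 in FVB129B6 glands. Both FVB values thus lay above every other gland, of which none exceeded 4.67. The level was lower in Balb/C than in FVB by a log2 difference of -1.29 (SE 0.22, 2.44-fold, adjusted p = 0.00586 in limma) and lower in FVB129B6 by -1.42 (SE 0.22, 2.67-fold, adjusted p = 0.00363). In whole tissue, fewer cells of a type and less RNA per cell cannot be told apart.

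miR-99b, the miR-99/100 family member of the same cluster, showed levels of 3.33 and 3.82 in FVB glands. In Balb/C glands it read 2.58, 2.49 and 2.75, and in FVB129B6 glands 2.68, 2.61 and 2.89. The 6 other glands lay close together, between 2.49 and 2.89, with both FVB values above them. The limma difference was -0.96 in Balb/C (SE 0.20, 1.95-fold, adjusted p = 0.0109) and -0.85 in FVB129B6 (SE 0.20, 1.80-fold, adjusted p = 0.0132).

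The members of the chromosome 9 and 16 clusters did not pass this test. miR-99a levels were 5.11 and 5.04 in FVB, 4.96, 4.74 and 5.06 in Balb/C, and 4.73, 4.70 and 5.02 in FVB129B6 glands, so that Balb/C overlapped with FVB. For miR-100 the values were 4.51 and 4.12 in FVB, 4.35, 4.16 and 4.42 in Balb/C, and 4.26, 4.22 and 4.46 in FVB129B6 glands, with the FVB pair on either side of all the others. miR-125b gave 6.67 and 7.17 in FVB, 6.79, 6.57 and 7.02 in Balb/C, and 6.43, 6.46 and 6.69 in FVB129B6 glands, and the strains overlapped again. The differences from FVB were -0.01 (95% interval -0.45 to 0.43) for miR-100 in Balb/C, -0.16 (-0.58 to 0.26) for miR-99a and -0.13 (-0.65 to 0.38) for miR-125b. In FVB129B6 the largest of the 3 was -0.39 (-0.91 to 0.12) for miR-125b, with an adjusted p of 0.189 in limma. These intervals leave room for changes of up to 0.91 on the log2 scale.

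As counts, 2 of the 5 members were called in each contrast with FVB, both lower than in FVB. Among all 261 miRNAs tested, 37.9% were called in Balb/C against FVB (32.2% lower) and 39.5% in FVB129B6 against FVB (31.4% lower), so the share among the members is that of the array. The median difference of all tested miRNAs was itself -0.48 in Balb/C and -0.39 in FVB129B6, against member medians of -0.16 and -0.39. Over the 3 strains limma's F-test called the same 2 members (adjusted p = 0.00626 for miR-125a and 0.0141 for miR-99b), against 46% of all miRNAs. Both FVB arrays stood above the 6 other glands for miR-99b and miR-125a and for 38.3% of the tested miRNAs. Balb/C and FVB129B6 glands gave 0 calls among the 5 in limma, with 0 at an unadjusted p under 0.05, and 3.45% called among all. The differences between these strains ranged from -0.11 for miR-99b to 0.26 for miR-125b (95% interval -0.20 to 0.72). In order of level, FVB therefore stood first for miR-125a and miR-99b, and Balb/C and FVB129B6, the neighbours after it, were not separated beyond their spread.

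The let-7 miRNAs of the 3 clusters, which hold back proliferation and are themselves restrained by Lin28a, were lower in both other strains than in FVB on this scale. let-7e of chromosome 17 had levels of 5.19 and 5.93 in FVB and between 4.40 and 4.91 in the 6 other glands. Its differences of -0.98 in Balb/C (adjusted p = 0.0208 in limma) and -0.79 in FVB129B6 (adjusted p = 0.0411) were close to those of its neighbour miR-99b, -0.96 and -0.85. The let-7e probe was 1 base edit from that of let-7a. In FVB glands let-7a had green intensities of 102722 and 89727, against 8987 and 11486 for let-7e. How much let-7a added to the signal of let-7e was not measured. let-7c and let-7a were lower by -0.81 and -0.79 in Balb/C, where miR-99a and miR-100 differed by -0.16 and -0.01. Over the let-7 family on the array, 8 of 9 were called lower in Balb/C and 7 of 9 in FVB129B6, and none higher. Those counts changed with the scaling. With the 75th percentile in place of the median, 0 were called lower in Balb/C (4 before adjustment in limma) and 2 in FVB129B6, and without scaling the direction flipped, with 5 of 9 and 8 of 9 called higher than in FVB. That flip was shared by the array, as 151 and 176 of all 261 tested miRNAs were called higher without scaling.

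**Figure D2:**
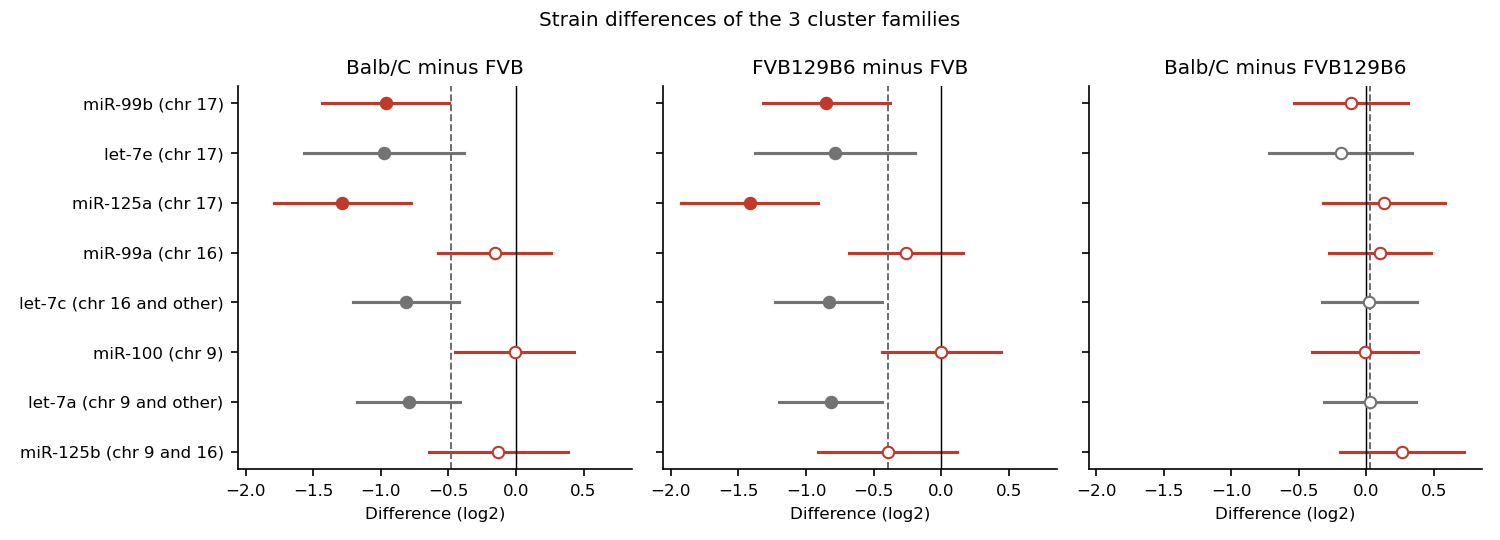
Log2 differences between strains with 95% intervals for the 5 members (red) and the 3 let-7 miRNAs of their clusters (grey), ordered by cluster, filled where limma's adjusted p was at most 0.05, with the dashed line at the median of all 261 tested miRNAs. Beside FVB, the 3 miRNAs of chromosome 17 lie left of 0 with filled points, and miR-99a, miR-100 and miR-125b are open.

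A ratio of 2 members on one array does not depend on how that array is scaled, so the strains were also compared on the log ratios. Each member in turn was subtracted from all other miRNAs on its array, the F-test over strains was repeated on the whole table, and a pair was called only where it passed with either member as the reference. Of the 10 pairs 5 were called, all of them joining miR-125a or miR-99b with a member of the other clusters. The background for these tests was 30% of miRNAs called relative to miR-99a, 41.2% relative to miR-99b, 30.4% relative to miR-100, 62.3% relative to miR-125a and 28.1% relative to miR-125b.

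Within the miR-125 family the ratio separated the strains most tightly. The log2 ratio of miR-125a to miR-125b, as the deviation from its mean over the 8 glands, was 0.81 and 0.82 in FVB, -0.30, -0.31 and -0.41 in Balb/C, and -0.31, -0.04 and -0.26 in FVB129B6 glands. The FVB arrays were nearly equal in this ratio although their levels of either miRNA were well apart. Relative to miR-125b, miR-125a was lower than in FVB by -1.15 in Balb/C (SE 0.17) and by -1.02 in FVB129B6 (SE 0.17), and the larger of the F-test's adjusted p values was 0.00787 in limma. This pair was called under all 23 alternatives run for pairs, with strain means apart by 1.00 to 1.41. 4 of those alternatives only rescale each array or use the deposited table, and leave a ratio as it is by construction. With no filter, a filter on every array, low signals raised, outlier spots kept or an intensity trend in limma, the ratio was unchanged too. There only the p-value moved, for this pair and for those below.

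Within the miR-99/100 family, the ratio of miR-99b to miR-99a was 0.25 and 0.80 in FVB, -0.35, -0.22 and -0.28 in Balb/C, and -0.03, -0.07 and -0.10 in FVB129B6 glands. The pair passed narrowly, with a larger adjusted p of 0.0456 in limma, and held under 13 of 23 alternatives. Between the families, miR-99b against miR-125b had an adjusted p of 0.0202 and held under 18 of 23 alternatives. miR-125a against miR-99a (0.0143) and against miR-100 (0.0174) each held under 22. The exceptions were the fit without FVB replicate 2 for the former and the ratio of green to red for the latter.

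miR-99b against miR-100 was not called, as it passed with miR-99b as the reference (adjusted p = 0.0351) and missed with miR-100 (0.0511). The chromosome 17 neighbours miR-125a and miR-99b were not called against each other (0.0623 and 0.115), although their ratio was 0.32 and 0.34 in FVB and no more than 0.08 elsewhere. For the 3 pairs among miR-99a, miR-100 and miR-125b the larger adjusted p was between 0.456 and 0.712. let-7e was not called against miR-99b (adjusted p = 0.880 in limma, with differences of -0.01, SE 0.15, in Balb/C and 0.06, SE 0.15, in FVB129B6). Nor were let-7a and let-7c of the other clusters called against miR-99b (adjusted p = 0.579 and 0.592 in limma). let-7e passed the same F-test against miR-125b (0.0202) and missed it against miR-99a (0.0803), miR-100 (0.0882) and miR-125a (0.0839). let-7c differed from its neighbour miR-99a over the strains (adjusted p = 0.0450 in limma), and let-7a missed the threshold against miR-100 (0.0503).

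**Figure D3:**
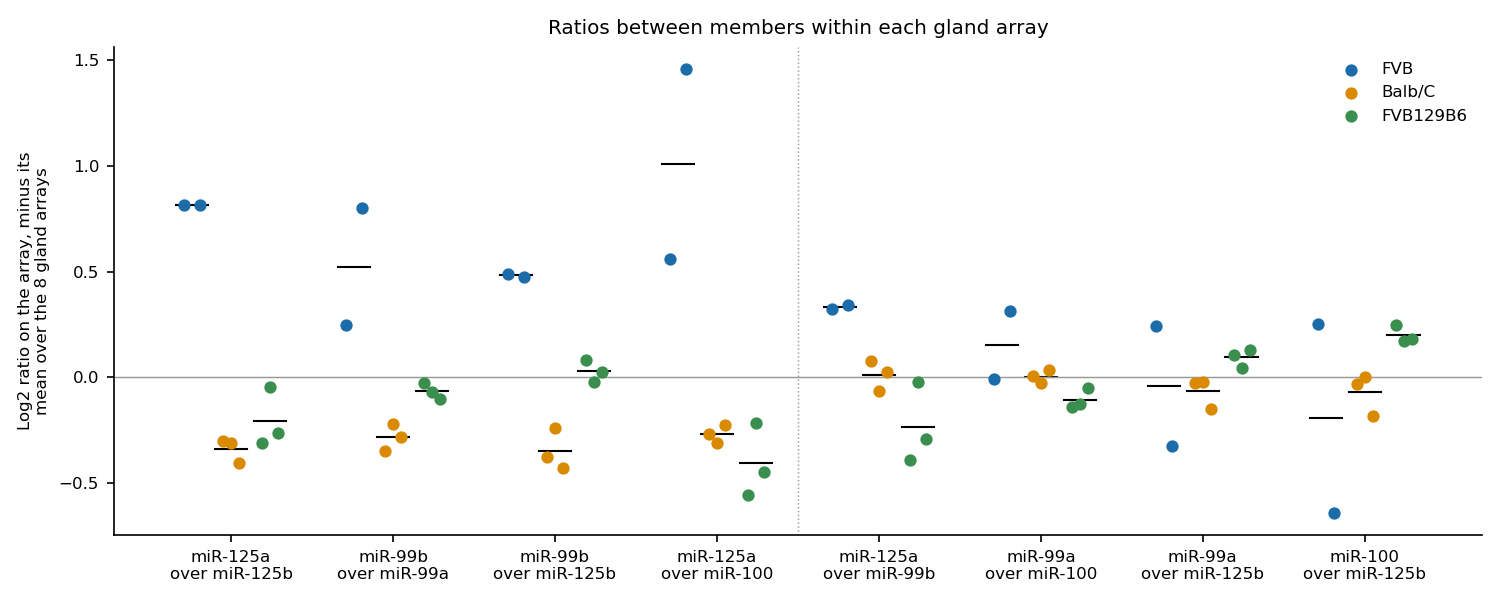
Log2 ratios between members on each gland array, minus the mean of the ratio over the 8 arrays, with one point for each array and lines at strain means. Left of the dotted line are 4 of the 5 called pairs, in which both FVB points (blue) lie above the other strains, and right of it 4 of the 5 pairs not called, of which the last 3 overlap between strains.

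How the levels themselves were read depended on the scaling. The 75th percentile of spot intensity was 3362.5 and 3945 on FVB arrays against 6530 to 8777.5 for the 6 other glands. With scaling on it, the median difference of all tested miRNAs from FVB was -0.05 in Balb/C and -0.025 in FVB129B6. Why the scalings differ was not tested. Unscaled, the green intensity of miR-125a was 11498 and 12507 in FVB and from 9426 to 15015 in the 6 other glands, which contain the FVB values. For miR-125b it was 25063 and 27196 in FVB against 44755 to 72360, a clear gap in the opposite direction to its levels. With no scaling limma called miR-99a, miR-100 and miR-125b higher in both other strains than in FVB, by 1.02 to 1.41, and gave miR-125a differences of 0.067 and -0.0036. Of all 261 tested miRNAs it called 151 higher in Balb/C and 176 higher in FVB129B6 without scaling. With the 75th percentile of each array in place of the median, miR-125a kept its call in both contrasts and miR-99b had adjusted p values of 0.0692 and 0.0799. These settings subtract 1 constant per array or none. The order, with the differences of miR-125a below those of miR-99a, miR-100 and miR-125b, is therefore the same in them by construction.

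**Figure D4:**
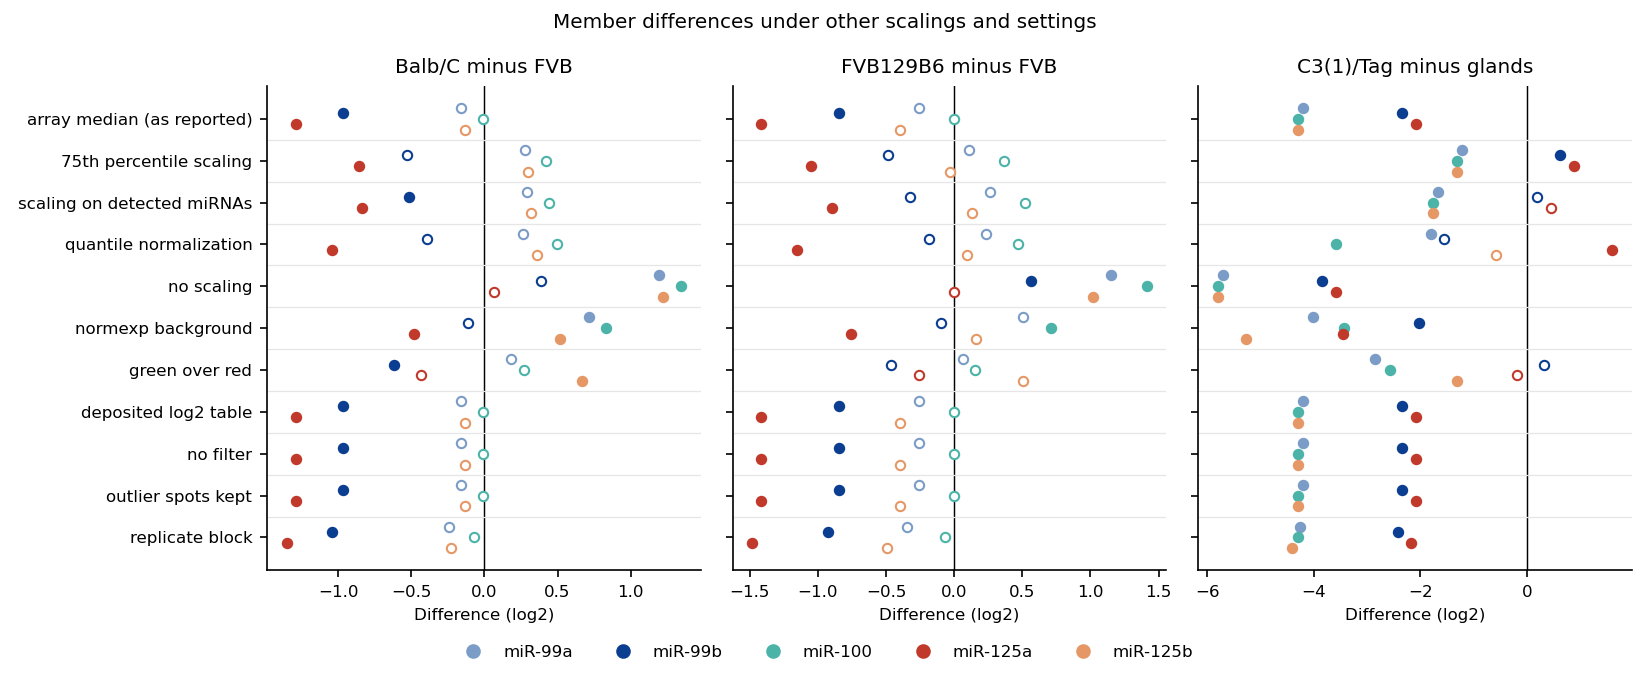
Log2 differences of each member under the reported setting and 10 alternatives, filled where limma's adjusted p was at most 0.05. Shifts of scaling move all members together in the 2 strain panels, with miR-125a (red) left of miR-99a, miR-100 and miR-125b in each row, and bring miR-125a and miR-99b to the right of 0 in some rows of the tumor panel. Rows that only shift each array by a constant keep the order of the members by construction.

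Of the marker lists for other tissue components, only that of skeletal muscle was called in full in both contrasts with FVB on the reported scale. Among all 261 tested miRNAs, 32.2% were called lower in Balb/C and 31.4% in FVB129B6, while 15 and 21 miRNAs were called higher. Of 4 skeletal muscle miRNAs on the array (miR-1, miR-206, miR-133b and miR-133a*) all 4 were called higher in Balb/C and in FVB129B6 than in FVB glands, with median differences of 4.97 and 3.83. Their summed level was 3.71 and 6.10 in FVB, 9.24 to 10.03 in Balb/C and 8.52 to 8.69 in FVB129B6 glands, and all 4 were called higher in both strains under the 6 other scalings and backgrounds run for lists. Of 10 epithelial miRNAs 5 were called lower in Balb/C and 2 in FVB129B6, but without scaling 1 and 6 were called higher and 0 and 1 lower. This list had summed levels of 9.02 and 9.93 in FVB, 8.18 to 9.04 in Balb/C and 9.01 to 9.36 in FVB129B6. Erythroid miRNAs had 1 and 3 of 3 called lower (0 and 1 without scaling, with 1 higher in Balb/C), and the summed level was 9.53 and 9.61 in FVB, 7.67 to 8.72 in Balb/C and 6.83 to 7.39 in FVB129B6. The leukocyte (4 measured), stromal and smooth muscle (5) and endothelial (1) lists gave 0 calls in limma in either contrast, with 0, 2 and 0 at an unadjusted p under 0.05 in each. These counts too moved with the processing, since without scaling 5 of 5 stromal miRNAs were called higher in both strains and 2 and 1 of 4 leukocyte miRNAs. Without scaling, 151 and 176 of all 261 tested miRNAs were called higher in Balb/C and in FVB129B6. After normexp background correction 2 and 3 stromal miRNAs were called higher and the endothelial one lower. All of the listed markers on the array were well above background on at least 1 gland array. The part of these components in the values of miR-99b and miR-125a was not tested.

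In the C3(1)/Tag tumors all 5 members were called lower than the mean of the 3 strains and lower than FVB, the strain of the tumors, in a limma fit over the 4 groups. The background was high, with 90.4% of miRNAs called against the glands (52.5% lower) and 88.1% against FVB (52.5% lower), and all 3 tumor arrays lay below the 8 glands for 46.4% of miRNAs. The member medians of -4.20 and -4.30 compare with medians of -0.83 and -1.04 over all tested miRNAs. Both contrasts use the same 3 tumors.

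miR-125a was the member best measured in tumors, with levels of 3.12, 1.34 and 3.97, of which replicates 1 and 3 were well above background. Its measured difference from FVB was -2.99 (SE 0.59, adjusted p = 0.000679 in limma), and that from the 3 strains was -2.09 (SE 0.44, adjusted p = 0.000939). miR-125b read 1.59, 1.55 and 4.21 and was well above background only in tumor replicate 3, where the intensity of 2317 stood above the 511 and 410 of replicates 1 and 2. It was lower than in FVB by -4.47 (SE 0.66, adjusted p = 8.23e-05) and than the 3 strains by -4.30 (SE 0.49, adjusted p = 8.51e-06). Where a member was not well above background on a tumor array, its level there was raised, if lower, to the dimmest miRNA that was (1.23 to 2.13), which gives a bound. The bound compares group means on the array median scale and carries no sampling error. In tumor replicate 3, miR-99a (1.40) and miR-99b (1.47) lay above the 1.23 of that array without being well above background. By this rule the FVB mean exceeded that of the tumors by at least 6.62-fold for miR-125a and at least 17.6-fold for miR-125b, with 2 and 1 of the 3 tumor arrays measured. Tumor replicate 3 had the highest reading of both miR-125 members, and the SD over tumors was 1.34 and 1.53, against at most 0.36 within any strain. The differences from FVB accordingly moved with the tumor left out, to -2.25 without replicate 2 and -3.57 without replicate 3 for miR-125a, and to -4.02 and -5.35 for miR-125b.

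The miR-99/100 members were well above background on none of the 3 tumor arrays, so that only bounds can be given. Tumor levels were 0.18, 0.65 and 1.40 for miR-99a, 0.43, -0.03 and 1.47 for miR-99b, and 0.17, 0.10 and -0.21 for miR-100. With the same rule miR-99a was at least 9.35-fold higher in FVB than in tumors (adjusted p of the fit = 3.41e-07 in limma), miR-100 at least 5.74-fold (1.73e-08) and miR-99b at least 3.25-fold (2.67e-05). Against the mean of the 3 strains the bounds were at least 8.49-fold, 5.73-fold and 2.14-fold.

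The tumor contrasts were also read under other scalings, since most miRNAs of the tumor arrays were near background. On unscaled intensities the gap was plain for each member, such as 354 to 1963 against 9426 to 15015 for miR-125a and 108 to 191 against 3274 to 12548 for miR-100. miR-100 stayed lower and called against both references under all 25 alternatives, and miR-99a under all 25 against the 3 strains and under 24 of 25 against FVB, the exception being quantile normalization (adjusted p = 0.107). miR-125a and miR-99b reversed against the 3 strains with the 75th percentile, to 0.88 and 0.63 (adjusted p = 0.0144 and 0.0143 in limma). The bounds of miR-99b and miR-100 held with the array median, no scaling and normexp background, and fell below 1 under the 75th percentile, the scaling on detected miRNAs and quantile normalization. So did those of miR-125a. That of miR-99a fell below 1 against FVB under the 75th percentile and against both references under quantile normalization, while those of miR-125b stayed above 1 in these settings.

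Among the cluster partners, let-7c and let-7a were well above background on all 3 tumor arrays and let-7e on 2. let-7c, at 6.42 to 7.15 in tumors, was lower than in FVB by -2.20 (SE 0.24), and let-7a by -3.96 (SE 0.31), both called in limma (adjusted p = 7.69e-06 and 5.73e-07). let-7c turned to higher than in FVB, also called, with the 75th percentile (1.04, adjusted p = 0.00183), scaling on detected miRNAs (0.76, adjusted p = 0.0240) and green over red (0.61, adjusted p = 0.0234). let-7a stayed lower, with values from -6.09 to -0.071. Its call was lost with quantile normalization (-0.071, adjusted p = 0.819 in limma) and green over red (-0.19, adjusted p = 0.541). On this scale 9 of 9 let-7 family members were called lower in tumors than in the 3 strains, but with the 75th percentile 3 were lower and 3 higher. Of the epithelial list 9 of 10 were called lower in tumors and of the stromal and smooth muscle list 5 of 5, against 52.5% of all miRNAs. Skeletal muscle had 4 of 4 lower, erythroid 3 of 3 and leukocyte 2 of 4, all against the 3 strains. Against FVB alone, skeletal muscle had 1 lower and 1 higher, erythroid 3 lower and leukocyte 2 lower. With the 75th percentile, against the 3 strains, erythroid and leukocyte each had 1 lower and 1 higher, and skeletal muscle 2 lower and 1 higher. The endothelial miRNA was called higher, though well above background on no tumor array. Also well above background on no tumor array were 5 epithelial, 2 stromal, 2 skeletal muscle, 3 erythroid and 2 leukocyte miRNAs. With quantile normalization 6 of 10 epithelial and 3 of 5 stromal miRNAs were called lower. Summed levels of the epithelial list were 4.48 to 4.92 in tumors against 8.18 to 9.93 in glands, and those of the stromal list 3.54 to 4.73 against 9.24 to 10.29. The part of tissue makeup in the members' tumor values was not tested.

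The miRNAs with the most similar profile were found over the 8 gland arrays among 199 miRNAs other than the members, each well above background on all 8. The 8 points share the slide and the 3 strains, and the coefficients are given as a description. miR-125a was closest to miR-183 (Pearson r = 0.989), of the epithelial list, and to miR-28 (0.986). miR-99b was closest to miR-28 (0.985) and to its own neighbour let-7e (0.980). miR-125b was closest to miR-497 (0.928) and miR-665 (0.912), miR-100 to miR-450 (0.821) and miR-424 (0.813), and miR-99a to miR-34c (0.780) and miR-485-5p (0.772). Between members, r was 0.955 for miR-99b with miR-125a, 0.741 for miR-99a with miR-125b and -0.02 for miR-100 with miR-125b, whose genes share the chromosome 9 cluster. With strain means removed, miR-99b had an r of 0.971 with let-7e, 0.958 with miR-125b and 0.819 with miR-125a, and miR-125a with miR-125b 0.910. A shift of whole arrays by the scaling enters these r. In the FVB glands, for example, miR-99b had levels of 3.33 and 3.82 but green intensities of 2471 and 2657.

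miR-351, named here for its seed, was above background by the same rule in each gland and in 0 of 3 tumors. It had levels of 1.38 and 1.96 in FVB, 0.76 to 1.28 in Balb/C and 0.65 to 0.99 in FVB129B6 glands, both FVB values being the highest. The difference from FVB passed in FVB129B6 (-0.86, adjusted p = 0.0254 in limma) and missed in Balb/C (-0.68, adjusted p = 0.0632). With the 75th percentile neither passed (adjusted p = 0.119 and 0.434), and without scaling the direction reversed, to 0.55 in FVB129B6 (adjusted p = 0.0522) and 0.68 in Balb/C (adjusted p = 0.0288).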

How the data were processed

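Total RNA labelled with Hy3, per the labels, was hybridised to a custom 2-colour Agilent array. The authors deposited Feature Extraction intensities, background subtracted and dye normalized (program versions 9.5.1.1 for tumors, 10.5.1.1 for glands), and a log2 table of the 1336 plus-strand mouse spots. The deposited log2 values equal the log2 green intensities after one constant per array. What the red channel held is not given in the sources used here, and it was used only as an alternative.

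Log2 green intensities were centred on the array median, outlier spots were left out and 4 spots averaged. Groups were compared with limma 3.58.1 in R 4.3.3 with Benjamini-Hochberg adjustment over 261 miRNAs at a threshold of 0.05, strains on the 8 gland arrays and tumors in a fit over all 11, and the fits were tested on simulated data. The number of arrays limits the precision. By rule, the miRNAs named are the members, the let-7 miRNAs of their clusters and the 2 best-correlated miRNAs of each member. miR-351, named for its seed, and the muscle markers lie outside it. Members, lists and tests were chosen with earlier results of these data known. Alternatives comprise other scalings, normexp background (offset 50), green over red, filters, spot summaries, other fits and each array left out. Sequences and positions are from RefSeq. Figures used Python 3.11.15 with matplotlib 3.10.9.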

Additional observations from a re-analysis of the deposited data

Results flagged for a closer look

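The red channel, for which the labels name no sample, carried signal at the spots of the members. In it miR-99a, miR-125a and miR-125b were well above background on all 11 arrays, miR-100 on 10 and miR-99b on 8. On the tumor arrays red intensities of miR-99a were 818 to 2466, where its green intensities of 192 to 330 were on no array well above background, and those of miR-100 were 362 to 1215. Red intensities of miR-99b on the tumor arrays were 146 to 230. On the gland arrays they were 6986 to 18216 for miR-99a and 2555 to 5755 for miR-99b. What these values measure was not tested.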

How the results depend on the processing

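Counts of the 5 members called moved mainly with the scaling. By limma's F-test 2 were called as reported, 3 without scaling (miR-99a, miR-100 and miR-125b in place of miR-99b and miR-125a), 3 with normexp background (miR-99a, miR-100 and miR-125a), 1 with the 75th percentile, 1 with scaling on detected miRNAs, 1 with quantile normalization, and 0 both with green over red (2 at an unadjusted p under 0.05) and with all 11 arrays in the fit (0 at an unadjusted p under 0.05), where the near-background tumor arrays enter the spread. In Balb/C against FVB the count went from 2 to 1 with the 75th percentile, 1 with quantile normalization, 3 without scaling (all higher), 4 with normexp background (3 of them higher) and 0 with all arrays in the fit (1 unadjusted). In FVB129B6 against FVB it went to 1 with the 75th percentile, 1 with scaling on detected miRNAs, 1 with quantile normalization, 4 without scaling (all higher), 0 with green over red (2 unadjusted) and 0 with all arrays (2 unadjusted). Among all 261 tested miRNAs without scaling, 151 were called higher and 0 lower in Balb/C, and 176 higher and 3 lower in FVB129B6. Against the 3 strains, 3 of 5 were called in tumors with scaling on detected miRNAs, 3 with quantile normalization and 3 with green over red. Against FVB the tumor count went from 5 to 3 with the 75th percentile, 3 with scaling on detected miRNAs, 1 with quantile normalization, 2 with green over red, and 2 in the fit of tumors and FVB alone, where 2 members were tested. Beyond the number of members tested in that last fit, the causes of these changes were not tested.

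Differences of opposite sign to those reported were as follows. In Balb/C against FVB, miR-100, miR-125b and miR-99a gave 0.42, 0.30 and 0.27 with the 75th percentile, 0.44, 0.32 and 0.29 with scaling on detected miRNAs, 0.49, 0.36 and 0.27 with quantile normalization, 1.34, 1.22 and 1.20 without scaling, 0.83, 0.52 and 0.72 with normexp background and 0.27, 0.67 and 0.18 with green over red. Without scaling miR-125a gave 0.067 and miR-99b 0.39, and with Balb/C replicates 2 and 3 averaged miR-100 gave 0.0016. In FVB129B6 against FVB, miR-100 and miR-99a gave 0.36 and 0.11 with the 75th percentile, and miR-100, miR-125b and miR-99a gave 0.52, 0.13 and 0.26 with scaling on detected miRNAs, 0.47, 0.094 and 0.23 with quantile normalization, 1.41, 1.02 and 1.15 without scaling, 0.71, 0.16 and 0.51 with normexp background and 0.15, 0.51 and 0.062 with green over red. miR-99b gave 0.56 without scaling. In Balb/C against FVB129B6, miR-100 gave 0.059 with the 75th percentile, 0.026 with quantile normalization, 0.12 with normexp background, 0.12 with green over red and 0.0016 with the averaged replicates, and miR-125a gave -0.17 with green over red. In tumors against the 3 strains, miR-125a gave 0.88, 0.44 and 1.60 with the 75th percentile, scaling on detected miRNAs and quantile normalization, and miR-99b gave 0.63 with the 75th percentile, 0.18 with scaling on detected miRNAs and 0.31 with green over red. Against FVB, miR-125a gave 0.25 with the 75th percentile and 0.95 with quantile normalization, and miR-99b 0.29 with the 75th percentile and 0.0062 with scaling on detected miRNAs.

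With each array left out, the F-test called 1 to 2 members, Balb/C against FVB 2 to 2, FVB129B6 against FVB 1 to 2, Balb/C against FVB129B6 0 to 0 (0 unadjusted), either tumor contrast 5 to 5 (with differences from FVB of -3.57 to -2.25 for miR-125a and -5.35 to -4.02 for miR-125b), and 3 to 7 of the 10 pairs were called. The call of miR-99b was lost without FVB replicate 2 in FVB129B6 (adjusted p = 0.0703) and in the F-test (0.0757), where the 1 FVB array left takes its spread from the other strains. Without FVB129B6 replicate 1, 2 or 3, Balb/C replicate 1 or FVB replicate 2, 3 pairs were called. Signs changed in miR-100, with differences from FVB of -0.20 to 0.19 in Balb/C and -0.20 to 0.20 in FVB129B6 and between these strains of -0.064 to 0.068, and in miR-125b, with -0.38 to 0.12 in Balb/C.

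The samples share replicate numbers without being paired by them. With group means taken out, arrays with one number correlated by 0.0440 on average (15 pairs of arrays), against -0.0221 for other pairs. With the replicate number as a block, 3 of 10 member pairs were called in place of 5, and no other count of members moved.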
